A study of Homo sapiens with 12 samples.

Results

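Ls174T cells depleted of p300 were compared with Ls174T cells transfected with control siRNA, 2 of the 12 samples of the series. Both samples are total RNA from the human colorectal cancer line Ls174T, taken after 72 h with 15 nM of an siRNA pool that targets p300 (si-P300) or of a non-targeting pool (si-control), with no Wnt3A or other added agent. Each RNA was labeled with Cy3 and hybridized to 1 dual-color Agilent array against Cy5-labeled human reference RNA, and a level is given below as the log2 ratio of sample to reference. The change after p300 depletion is the si-P300 ratio minus the si-control ratio. Of the 43376 features that are not control spots, 28077 had a signal above 2-fold the local background in either channel on both arrays and no outlier mark, and they represent 13414 named genes. There is 1 array per condition, and with no replicate arrays the conditions were compared without a test. The error beside a change is that of the scanner program, combined over both arrays, and it leaves out the spread between cultures.

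p300, encoded by EP300, is a histone acetyltransferase that transcription factors recruit to enhancers and promoters, where it acetylates histones and other proteins and holds further coactivators. Its close paralog CBP, encoded by CREBBP, does much of the same work. In colorectal cells p300 is one of the coactivators that bind β-catenin, the effector of the Wnt pathway, and the study included its depletion to set MLLT10/AF10 beside known Wnt coactivators. p300 and CBP also serve p53, nuclear receptors, HIF, NF-κB, and the STAT and IRF factors of the interferon response.

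The si-control array shares its slide with the Ls174T si-MLLT10 array and the HEK293T si-P300 array, and the Ls174T si-P300 array shares its slide with the Ls174T si-BRG1 array. Slide and siRNA can therefore not be told apart in the comparison with si-control, and the si-BRG1 value of the same slide is given beside the main results. Every p300 change in Ls174T cells, whatever the control, rests on the same si-P300 array. The sample channel was well above background for 31145 features on the si-P300 array and 32966 on the si-BRG1 array of the one slide, against 27547 on the si-control array and 27692 on the si-MLLT10 array of the other. The same reference RNA was in the Cy5 channel of both arrays, and its scaled signal still differed by more than 2-fold between them for 5.09% of the features, with an SD of 0.44 on the log2 scale. A change in the sample channel alone is therefore given where it departs from the change in the ratio.

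EP300 RNA was lower after si-P300. On the probe printed in 8 spots the log2 ratio was 0.06 on the si-control array and -1.26 on the si-P300 array, a change of -1.31 (program error 0.40), which is 2.48-fold. The mean Cy3 signal of these spots was 75 after si-control and 25.3 after si-P300, so the target was dim on both arrays, and a share of 0.5 of its spots on the si-P300 array was well above background. The other EP300 probe changed by -0.60 (program error 0.48), and it was well above background on the si-control array only. Its bound depends on the scaling of the sample channels, at least 2.18-fold after A-quantile normalization between the arrays and at least 1.53-fold with each array scaled at its 75th percentile, where the probe differed by -0.79. On the si-BRG1 array EP300 was at -0.07 relative to si-control, and p300 minus BRG1 on the same slide was -1.26. With normexp background correction and loess in place of the program's processing, the 8-spot probe changed by -0.56. CREBBP differed by -0.12 (program error 0.29) on its 10-spot probe and by 0.46 (program error 0.30) on another. In RNA from a culture, fewer cells that express a gene and less RNA per cell cannot be told apart.

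Among all features tested, 1164 were more than 2-fold higher after p300 depletion, 4.15% of them, and 493 were more than 2-fold lower, 1.76%. By gene these were 535 higher (3.99%) and 236 lower (1.76%), with a median change over all genes of 0.04. Most of the higher features were dim. The sample channel was well above background on both arrays for 231 of the 1164 higher features (19.8%) and for 334 of the 493 lower ones (67.7%), while 578 of the higher features passed on the si-P300 array only. Within the features that were well above background in the sample channel on both arrays, 0.928% were higher and 1.34% lower, and by gene 1.09% were higher and 1.4% lower. Under normexp and loess 51 features were higher and 188 lower. The excess of higher over lower features thus lies in low signals, and the genes described below are those bright on both arrays unless a bound is given.

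**Figure D1:**
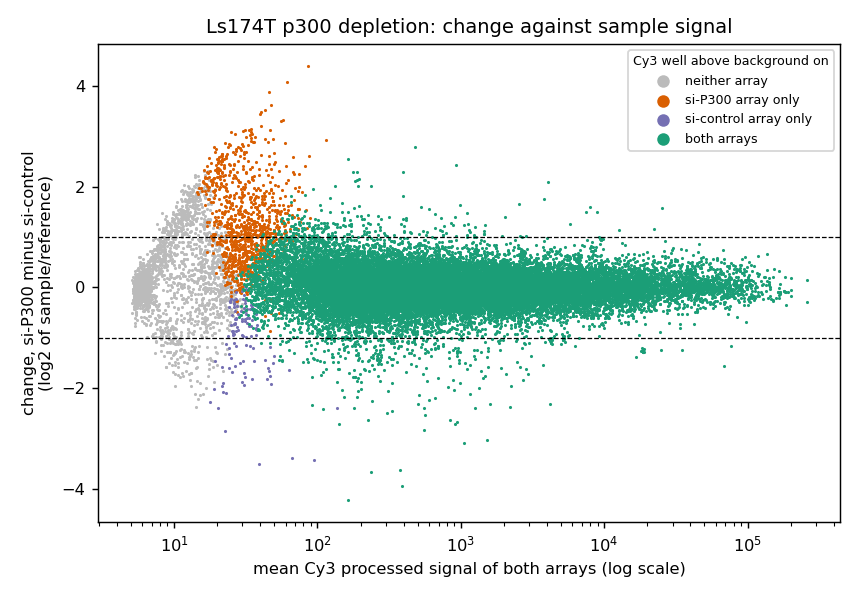
Change after p300 depletion (log2 of the ratio to reference RNA, si-P300 minus si-control) of the 28077 features tested against their mean Cy3 signal on both arrays, on a log axis. Colors give the arrays on which the sample channel was well above background, and dashed lines mark 2-fold. The 578 higher features seen on the si-P300 array only are in the orange group, at low signals.

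The genes that stood out among the bright increases were those induced by interferon. Of 35 listed interferon-stimulated genes 31 were measured, and 9 were more than 2-fold higher and 0 lower, where 3.99% of all genes were higher. At 1.5-fold, 15 were higher and 0 lower, where 8.97% of all genes were higher and 5.13% lower. The list median was 0.58 against 0.04 for all genes, and 28 of the 31 changes were above 0. IFI6, which encodes an antiviral protein of the endoplasmic reticulum and mitochondria, went from a log2 ratio of 0.10 to 2.19, a change of 2.09 (program error 0.35), with Cy3 signals of 995 and 7146. IFIT1, whose product binds viral RNA, went from 0.47 to 2.21, a change of 1.75 (program error 0.36). Both were near the level of the reference RNA after si-control and more than 4-fold above it after si-P300.

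IRF9, a DNA-binding factor that carries the interferon signal to its target genes, changed by 1.48 (program error 0.32), with Cy3 signals of 557 and 1664. Its partner STAT2 differed by 0.29 (program error 0.31) and IRF7 by 0.02. Among the effectors, IFI44 changed by 1.78, IFIT2 by 1.40, and HERC6, a ubiquitin ligase, by 1.24. IFI44L, XAF1, and IFIT3 were well above background in the sample channel on the si-P300 array only and are bounds, of at least 2.20-fold, 4.38-fold, and 2.13-fold after A-quantile normalization, which was the smaller value of the pair for all 29 bounds for higher levels among the named and listed genes. The 22 members that did not pass 2-fold ranged from -0.29 to 0.96, and they include the abundant ISG15 at 0.58, MX1 at 0.64, OAS3 at 0.81, and IFITM3 at 0.43.

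SAMD9, an antiviral and growth-restraining gene that the list does not hold, was the second largest of the bright increases, at 2.43 (program error 0.33), from a Cy3 signal of 234 to 1630. It was named by its size. Its neighbor and paralog SAMD9L was higher by at least 2.12-fold, and SP110, a nuclear body gene picked out after its value was seen, changed by 1.46 (program error 0.31).

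The 6 members that were past 2-fold and bright had smaller changes on the other Ls174T arrays. Over these 6 members the change after BRG1 depletion ranged from 0.37 for IFIT2 to 0.82 for IFI6, and after MLLT10/AF10 depletion from 0.21 to 0.67. All these comparisons share the si-control array. Of the 3 bounds, IFI44L and XAF1 were also higher after BRG1 depletion, at 2.18 and 1.82, and IFIT3 was at 0.72. Within the one slide, p300 minus BRG1 was 1.28 for IFI6, 1.13 for IFIT1, and 1.40 for IFI44. It was above 0 for 31 of 31 list members, with a median of 0.40 against 0.03 for all genes. Of these members 7 passed 2-fold, where 0.772% of all genes were that much higher. A further si-control RNA can be read from the Cy3 channel of the array that holds β-catenin-depleted RNA in Cy5. Against it, with sample channels alone, IFI6 was 2.22 higher, IFIT2 2.84, IRF9 2.34, SAMD9 2.94, and HERC6 0.91. There 10 list members passed 2-fold, where 9.42% of all genes were that much higher. Both this comparison and p300 minus BRG1 use the same si-P300 array as the changes above, so neither is independent of them. Under the program's ratio, normexp and loess, the sample channel alone, and the other settings on the same 2 arrays, IFI6 stayed between 2.07 and 2.89, IFIT1 between 1.73 and 2.12, and IFIT2 between 1.33 and 1.48. IFI44 was at 0.74 under normexp and loess and IFI44L at -0.02, and 5 members passed 2-fold there.

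**Figure D2:**
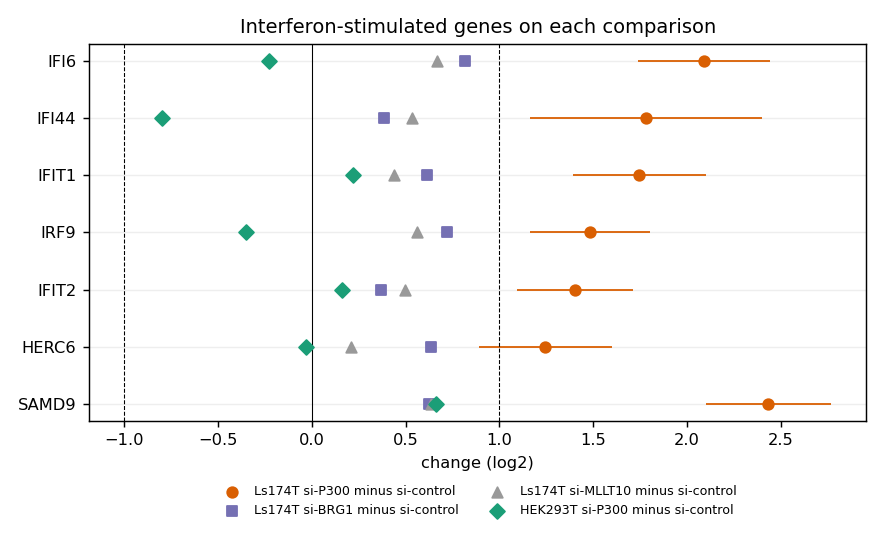
Change (log2) of the 6 interferon-stimulated genes that were past 2-fold and bright on both arrays, and of SAMD9, in Ls174T cells after p300, BRG1, or MLLT10 depletion and in HEK293T cells after p300 depletion. Bars are the program error of the Ls174T p300 change, and dashed lines mark 2-fold. The p300 changes in Ls174T cells lie between 1.24 and 2.43, to the right of every other point of the same gene.

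Sequences before the start of these genes are shown because interferon acts through a short repeat, the interferon-stimulated response element, to which IRF9 and its partners bind. The letters GAAA, then any pair of bases, then GAAA were searched on both strands, with overlapping matches counted, in the 250 bases before each start in a RefSeq table (GRCh38.p14). They occurred in 3.02% of 35116 windows and in 3.26% of the genes measured here. Of the 25 list members with a window 17 held a match, and of the 8 with a window that were past 2-fold 5 did. The list as a whole held the letters more often than all windows did. A match is a description of the letters in the window and shows no binding. IFI6 had 3 matches, IFIT1 had 2, IFIT3 had 2 in the window shown and 2 in the window of another start, and SAMD9 had 1, from 136 to 127 bases before its start, while the windows of IRF9, HERC6, XAF1, and SAMD9L held none. Capitals mark the matches in the strand of the gene, 5′ to 3′.
IFI6 (chr1:27672253-27672372, minus strand): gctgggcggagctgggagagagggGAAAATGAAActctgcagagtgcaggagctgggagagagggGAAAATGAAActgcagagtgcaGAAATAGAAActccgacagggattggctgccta
IFIT1 (chr10:89392473-89392592, plus strand): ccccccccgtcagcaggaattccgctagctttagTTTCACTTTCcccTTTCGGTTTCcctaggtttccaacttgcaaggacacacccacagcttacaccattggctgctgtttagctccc
IFIT3 (chr10:89327827-89327966, plus strand): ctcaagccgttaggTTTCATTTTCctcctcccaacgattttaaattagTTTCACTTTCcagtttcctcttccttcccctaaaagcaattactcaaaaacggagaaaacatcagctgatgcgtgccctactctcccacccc
SAMD9 (chr7:93118030-93118149, minus strand): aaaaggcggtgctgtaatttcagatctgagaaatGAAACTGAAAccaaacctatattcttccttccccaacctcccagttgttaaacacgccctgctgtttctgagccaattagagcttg

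Apart from interferon genes, bright increases included cell cycle inhibitors. Of 8 CDK inhibitor genes measured, CDKN2D and CDKN2C, which encode the p19 and p18 inhibitors of CDK4 and CDK6, were more than 2-fold higher, and 0 were lower. Among all genes 3.99% were higher and 1.76% lower. CDKN2D went from -0.74 to 0.85, a change of 1.59 (program error 0.31), with Cy3 signals of 4076 and 11979. CDKN2C went from -0.46 to 0.67, a change of 1.14 (program error 0.30), with signals of 7867 and 17716. After BRG1 depletion they were at -0.19 and -0.02, and p300 minus BRG1 was 1.78 and 1.16. CDKN1A, the p21 gene, differed by 0.05 and CDKN1B by 0.45. Cell division genes did not pass 2-fold. Of 35 DNA replication genes 0 passed 2-fold in either direction, with a range of -0.31 to 0.76 and a median of 0.11, and of 29 mitosis genes 0 did, with a median of 0.19.

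The largest bright increases, 1 probe per gene and 15 in all, divide by what the si-BRG1 array of the same slide showed. For 8 of them BRG1 depletion was also more than 2-fold higher than si-control, where 3.67% of all genes were. For 6 p300 minus BRG1 was more than 2-fold higher, where 0.772% of all genes were. Neither count is independent of the choice of the 15, since the first shares the si-control array with it and the second the si-P300 array. CCDC88A, an actin-binding gene, changed by 2.16 (program error 0.69) and by 0.34 after BRG1 depletion. TGFB2, the TGF-β2 ligand, changed by 1.81 (program error 0.36) and by 0.68 after BRG1 depletion. In contrast C1QTNF5, a C1q family gene, was at 2.29 after p300 depletion and 2.28 after BRG1 depletion, CYBRD1, a duodenal ferric reductase, at 2.01 and 2.07, and GPR137B, a lysosomal membrane gene, at 1.66 and 1.46. Whether these follow the slide or both knockdowns cannot be told apart. PIWIL1, the first of the 15 by its ratio at 2.78, had a lower Cy3 signal after si-P300 (332) than after si-control (622), and its reference channel differed by -3.65 between the arrays.

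Dim genes gave bounds. The 10 largest bounds for higher levels ran from at least 4.03-fold to at least 8.01-fold, led by SERPINB2, a serine protease inhibitor, with Cy3 signals of 19.3 and 210.0. Another SERPINB2 probe, also dim, changed by -1.90, so the probes of this gene disagree. The bounds rest on the sample channel alone, and in the ratio some of the 10 changed by less than their bound. Among these were SERPINB2 at 7.56-fold, TCL1A at 2.92-fold, CAPN13 at 2.61-fold, and SLC34A1 at 2.08-fold. Others, such as KLRK1 at 21.1-fold, changed by more. Under normexp and loess SERPINB2 was at 0.95 on the log2 scale. In 8 of these 10 the level after BRG1 depletion was more than 2-fold above the same si-control array as well, which also entered the choice of the 10. KLRK1, which encodes the NKG2D receptor, was the 1 gene of the 10 past 2-fold against BRG1, with a bound of at least 5.84-fold and p300 minus BRG1 of 4.74. The largest bounds for lower levels were those of CFAP161, at least 10.1-fold after A-quantile normalization and 7.53-fold with scaling at the 75th percentile, and DCDC2, at least 7.52-fold and 5.59-fold, both genes of cilia. All 14 bounds for lower levels among the named and listed genes were smaller with the second scaling. CFAP161 was at -3.52 and -4.04 and DCDC2 at -3.74 and -3.37 after BRG1 and MLLT10/AF10 depletion, so of the 4 Ls174T arrays with reference RNA only the si-control array was high for both.

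The largest bright decreases in the ratio were KRTAP9-2 at -4.22, DEFA6 at -3.93, and KRTAP3-3 at -3.66, whose reference channels also differed as described below. PCK1, which encodes the first committed enzyme of gluconeogenesis, went from a log2 ratio of 0.69 to -2.93, a change of -3.62 (program error 0.41), with Cy3 signals of 709 and 40.6. Another PCK1 probe changed by -1.30 in the ratio, but its Cy3 signals of 136 and 144 were not lower after si-P300. The PCK1 probes thus disagree in the sample channel. PLA2G2A, a secreted antibacterial phospholipase of Paneth cells, went from 3.38 to 0.35, a change of -3.03 (program error 0.43), with signals of 2813 and 231. BAAT, which conjugates bile acids, changed by -2.70, HKDC1, a hexokinase, by -2.53 and -2.30 on its 2 probes, and DDC, which makes dopamine and serotonin, by -2.30. NOX1, the colonic NADPH oxidase, changed by -3.09, -1.80, and -0.22 on its 3 probes, and its sample channel by -2.17, -2.58, and -2.13. GPX2, the gastrointestinal glutathione peroxidase, changed by -1.95 (program error 0.38) and AKR1B10, an aldo-keto reductase, by -1.69 (program error 0.50).

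The sample and reference channels were also read apart. Of the 15 largest bright decreases, 11 were also more than 2-fold lower in the sample channel. On the probes ranked here, the sample channel of PCK1, PLA2G2A, BAAT, and DDC was lower by more than the ratio was. For 7 of the 15 the reference channel differed by more than 2-fold between the arrays. Among these the sample channel of EHF, an epithelial ETS factor, was lower by only 0.34 on the log2 scale where the ratio changed by -2.62, and CALB2, LRRC19, and REG1B were likewise under 2-fold. KRTAP9-2, KRTAP3-3, and DEFA6, an α-defensin of Paneth cells, were past 2-fold in both channels, in opposite directions. On the si-BRG1 array 13 of the 15 were also more than 2-fold below si-control, where 1.33% of all genes were, by less than after p300 depletion in all of them but FGF21. The BRG1 change subtracts the same si-control array that entered the choice of the 15, so this count is not independent of that choice. The p300 minus BRG1 values share the si-P300 array with it. PLA2G2A was at -0.82 and DDC at -0.46 after BRG1 depletion. For 9 of the 15 p300 minus BRG1 was more than 2-fold lower, where 1.37% of all genes were. Among the 9 were PLA2G2A (-2.21), DDC (-1.84), PCK1 (-1.66), and BAAT (-1.58). FGF21, a hormone of the starvation response, was at -2.64 after p300 and -2.72 after BRG1 depletion.

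**Figure D3:**
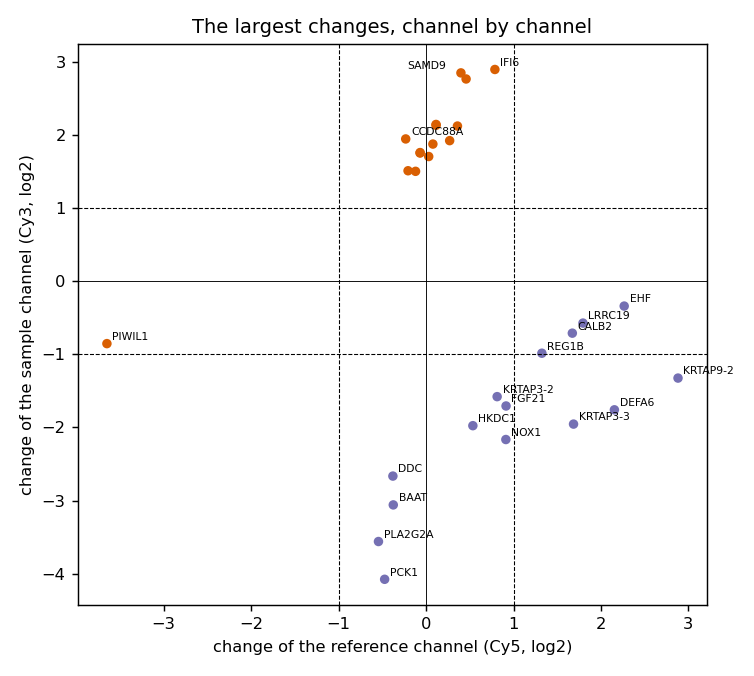
Change of the sample channel (Cy3) against change of the reference channel (Cy5) between the si-P300 and si-control arrays (log2, each channel scaled at its 75th percentile) for the 15 largest bright increases (orange) and decreases (purple). The reference RNA is the same on both arrays, and points far from 0 on the horizontal axis, such as PIWIL1, KRTAP9-2, and EHF, differed in the reference channel. Dashed lines mark 2-fold. Some crowded points carry no name.

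Goblet cells make the mucus of the colon, and Ls174T cells express many of their genes. Of 20 goblet cell genes measured, 0 were higher and 5 lower by more than 2-fold, where 1.76% of all genes were lower, and 17 of the 20 changes were below 0 with a median of -0.37. ZG16, a lectin of the mucus layer, went from 5.08 to 2.78, a change of -2.30 (program error 0.63). MUC13, a membrane mucin, went from 5.73 to 3.48, a change of -2.25 (program error 0.75). ST6GALNAC1, which adds sialic acid to mucins, went from 2.98 to 1.14, a change of -1.84 (program error 0.41), with Cy3 signals of 4415 and 988. FCGBP, a mucus scaffold protein, changed by -1.16 (program error 0.47). TFF2, a trefoil peptide, changed by -1.29 in the ratio but by -0.19 in the sample channel, which leaves 4 members past 2-fold in both measures. The classic secreted mucin MUC2 was at -0.89 in the ratio and 0.73 in the sample channel, TFF3 was at -0.42, and the goblet cell regulators SPDEF, GFI1, and ATOH1 were at -0.70, 0.71, and -0.38.

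Enterocyte genes were less uniform. Of 22 measured, 2 were lower and 2 higher by more than 2-fold, where 1.76% of all genes were lower and 3.99% higher, with a median of -0.29. FABP1, the liver and intestinal fatty acid binding protein, changed by -1.88 (program error 0.70), and CEACAM6, an adhesion gene, by -1.07 (program error 0.51). The 2 higher members, CA2 and LCT, were well above background on the si-P300 array only and were as high after BRG1 depletion, at 3.07 and 1.89. VIL1, the villin gene of the brush border, differed by -0.07. CDH17, the liver-intestine cadherin, was the only epithelial junction gene past 2-fold, at -1.68 (program error 0.99), among 24 measured with a median of 0.00, and EPCAM differed by -0.01.

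Against the further si-control channel noted above, 5 goblet cell genes were lower by more than 2-fold, where 8.7% of all genes were, with ZG16 at -2.69, MUC13 at -2.08, and FCGBP at -2.02. ST6GALNAC1 was at -1.005 there, TFF2 at 0.27, and the enterocyte gene FABP1 at -2.46. Against BRG1 depletion on the same slide 2 passed, where 1.37% of all genes were lower, ZG16 at -2.21 and MUC13 at -1.41, while ST6GALNAC1 was at -0.64 and FCGBP at -0.46. ST6GALNAC1 was at -1.19 after BRG1 depletion relative to si-control.

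Several of these genes were higher after β-catenin depletion, which was measured in the same cell line by a dye-swapped pair of arrays with no reference RNA and a si-control sample of its own. There ZG16 was 2.88 higher, ST6GALNAC1 2.51, FCGBP 1.82, MUC13 1.34, PLA2G2A 1.86, PCK1 2.39, and FABP1 5.07 higher. Of 16 goblet cell genes measured in both, 10 were more than 2-fold higher after β-catenin depletion and 0 lower. Over all features, 208 of those more than 2-fold lower after p300 depletion were measured in the pair, and 76 of them (36.5%) were more than 2-fold higher after β-catenin depletion, where 4.03% of the 17311 features measured in both were. The 76 are 76 of the 698 features higher after β-catenin depletion. Another 17 of the 208 (8.17%) were more than 2-fold lower, where 1.36% of all were, among them DEFA6 at -2.93 and KRTAP9-2 at -2.42. Of the features more than 2-fold higher after p300 depletion, 99 were measured in the pair. Of these 99, 13 (13.1%) were more than 2-fold higher after β-catenin depletion and 5 (5.05%) lower. GPX2 was at -0.84 after β-catenin depletion. Of the 15 largest bright decreases, 13 were measured in the pair. Of these, 5 were more than 2-fold higher after β-catenin depletion and 4 more than 2-fold lower.

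**Figure D4:**
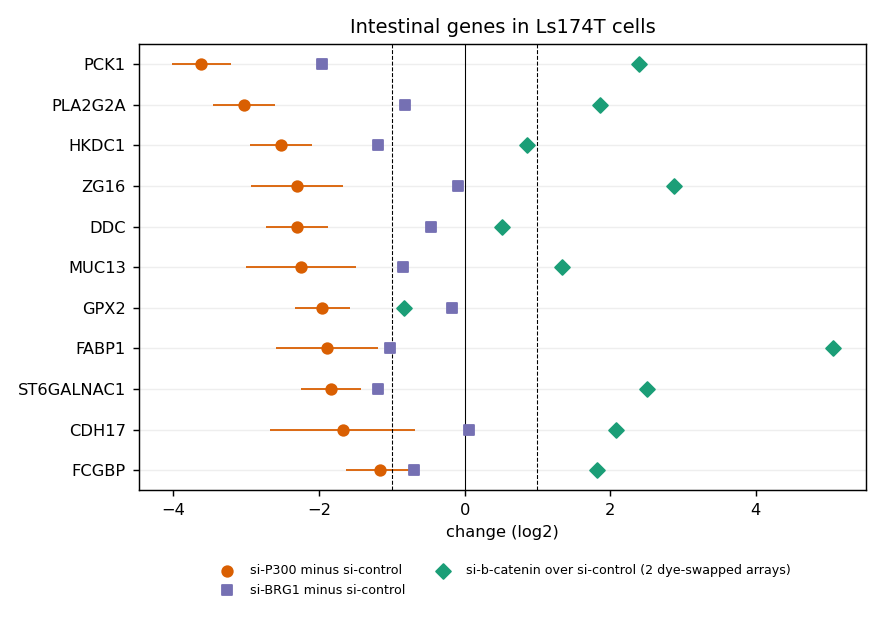
Change (log2) of 11 intestinal genes in Ls174T cells after p300 depletion, after BRG1 depletion, both relative to the same si-control array, and after β-catenin depletion, the mean of 2 dye-swapped arrays. The genes were picked among those lower after p300 depletion, and the BRG1 points share the si-control array with that choice. Only the β-catenin points have a si-control sample of their own. Bars are the program error of the p300 change and dashed lines mark 2-fold. All but GPX2 lie above 0 after β-catenin depletion, which holds for the genes picked here and not for the largest decreases as a set. The β-catenin pair measured 13 of the 15 largest bright decreases, and 5 went up and 4 went down past 2-fold. Those 4, not shown here, are DEFA6 (-2.93), KRTAP9-2 (-2.42), KRTAP3-3 (-1.77), and KRTAP3-2 (-1.19).

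The Wnt target genes themselves showed no common shift. Of 24 measured, 1 was more than 2-fold higher and 2 lower, where 3.99% of all genes were higher and 1.76% lower, and the median was -0.00. MYC, the growth regulator that the pathway drives, was lower on its 10-spot probe, from 0.07 to -1.19, a change of -1.26 (program error 0.31), with Cy3 signals of 26709 and 10643. CD44, an adhesion receptor of crypt cells, changed by -1.04 (program error 0.41), was at -0.01 after BRG1 depletion, and was at -1.03 in p300 minus BRG1. SP5, a Wnt-induced repressor, changed by 1.64 (program error 0.51), with a second probe at 1.60 and another, of lower signal, at -0.51. After BRG1 depletion SP5 was at 1.00, and p300 minus BRG1 was 0.63. Of the defining members, the feedback gene AXIN2 differed by -0.22 (program error 0.43), the stem cell marker LGR5 by -0.23, the crypt regulator ASCL2 by 0.51, the Eph receptors EPHB2 and EPHB3 by -0.69 and -0.21, RGMB by 0.23, and SMOC2 by -0.25. None of these 7 was past 2-fold in the ratio. In the sample channel ASCL2 was 1.54 higher, past 2-fold, and its reference channel differed by 1.02. The sample channels of EPHB3 and LGR5 were at 0.69 and -0.86. Those of AXIN2, EPHB2, RGMB, and SMOC2 were at -0.51, -0.44, 0.35, and 0.03. In the β-catenin pair 11 of the 17 list members measured were more than 2-fold lower, with AXIN2 at -1.97, ASCL2 at -2.81, SP5 at -3.15, and MYC at -1.15. MYC was at -0.60 after BRG1 depletion, and p300 minus BRG1 was -0.66.

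Genes of the amino acid and unfolded protein stress responses were lower relative to the si-control array, and their values differed with the control used. Of 27 measured, 0 were higher and 5 lower by more than 2-fold, where 3.99% of all genes were higher and 1.76% lower. Of the 27 changes 24 were below 0, and the median was -0.41 against 0.04 for all genes. DDIT4, an inhibitor of mTORC1, changed by -1.24 (program error 0.30), with Cy3 signals of 35541 and 14004. TRIB3, a pseudokinase induced by ATF4, changed by -1.17 (program error 0.35), SLC7A11, the cystine transporter, by -1.16 (program error 0.35), CHAC1, which degrades glutathione, by -1.10 (program error 0.33), and DDIT3, the CHOP gene, by -1.02 (program error 0.30). ATF4, the factor that drives many of them, was at -0.68 (program error 0.30). ATF3, listed with the immediate early genes, changed by -1.27 (program error 0.33).

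TRIB3, CHAC1, and SLC7A11 were at -1.01, -0.94, and -0.78 after BRG1 depletion and DDIT4 at -2.04, so that p300 minus BRG1 was -0.16 for TRIB3 and CHAC1 and 0.80 for DDIT4, and 0 list members passed 2-fold within the slide. Against the further si-control channel DDIT4 was 1.46, SLC7A11 1.73, and DDIT3 0.28 higher, TRIB3 and CHAC1 were at -0.58 and -0.45, and 3 members passed 2-fold lower, where 8.7% of all genes did. The letters TGATGNAA, found in many ATF4-bound elements, were searched in the same windows and strands. They occurred in 3.14% of all windows and 2.56% of genes measured, in 4 of the 24 list members with a window, and in 1 of the 4 of these past 2-fold. That member was CHAC1. The FGF21 window is shown with it because FGF21 is among the 15 largest bright decreases and held the same letters, and it was chosen after its value was seen. Capitals mark the match, here the reverse strand TTGCATCA in both.
CHAC1 (chr15:40953221-40953340, plus strand): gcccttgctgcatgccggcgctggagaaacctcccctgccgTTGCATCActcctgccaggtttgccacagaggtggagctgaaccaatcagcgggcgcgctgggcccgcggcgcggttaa
FGF21 (chr19:48755404-48755523, plus strand): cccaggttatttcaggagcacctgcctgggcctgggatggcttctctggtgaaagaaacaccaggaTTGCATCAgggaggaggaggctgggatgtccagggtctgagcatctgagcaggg

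Inflammatory targets went both ways. Of 20 NF-κB target genes measured, 3 were more than 2-fold lower and 3 higher, where 1.76% of all genes were lower and 3.99% higher. The neutrophil chemokine genes CXCL2 and CXCL3 changed by -1.22 (program error 0.30) and -1.05 (program error 0.31), and CXCL1, just under 2-fold at -0.9997, did not pass. Against the further si-control channel CXCL2 was at -0.92 and CXCL3 at -0.10. After BRG1 depletion the 3 were at 0.31, 0.17, and 0.23, so that p300 minus BRG1 was -1.53, -1.22, and -1.23. IL1B, the interleukin-1β gene, was at -1.42 after p300 and -1.80 after BRG1 depletion. Of the 3 higher members TRAF1 was bright, at 1.06, while IL6 was a bound of at least 2.28-fold and CCL20 was not well above background on either array. All 3 were as high after BRG1 depletion. Of 28 hypoxia target genes, CA12, a carbonic anhydrase, and DDIT4 were lower, and the median was -0.10. The immediate early and CREB targets, 29 measured, had ATF3 lower and EGR2 and PDE4D higher, both of them well above background on the si-P300 array only. GPX2, AKR1B10, and SLC7A11 were the members past 2-fold of the metallothionein and oxidative stress genes, all lower, among 20 measured.

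In 8 of the 20 lists no member passed 2-fold in either direction. They are the 13 other histone acetyltransferases measured, with changes from -0.39 to 0.84, the 15 histone deacetylases, the 11 acetyl-lysine readers, the DNA replication and mitosis genes given above, the 27 p53 target genes, with changes from -0.96 for GADD45A to 0.91, the 28 cholesterol synthesis genes, with a median of -0.15, and the 16 TGF-β and BMP target genes, with changes from -0.87 to 0.95. 

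**Figure D5:**
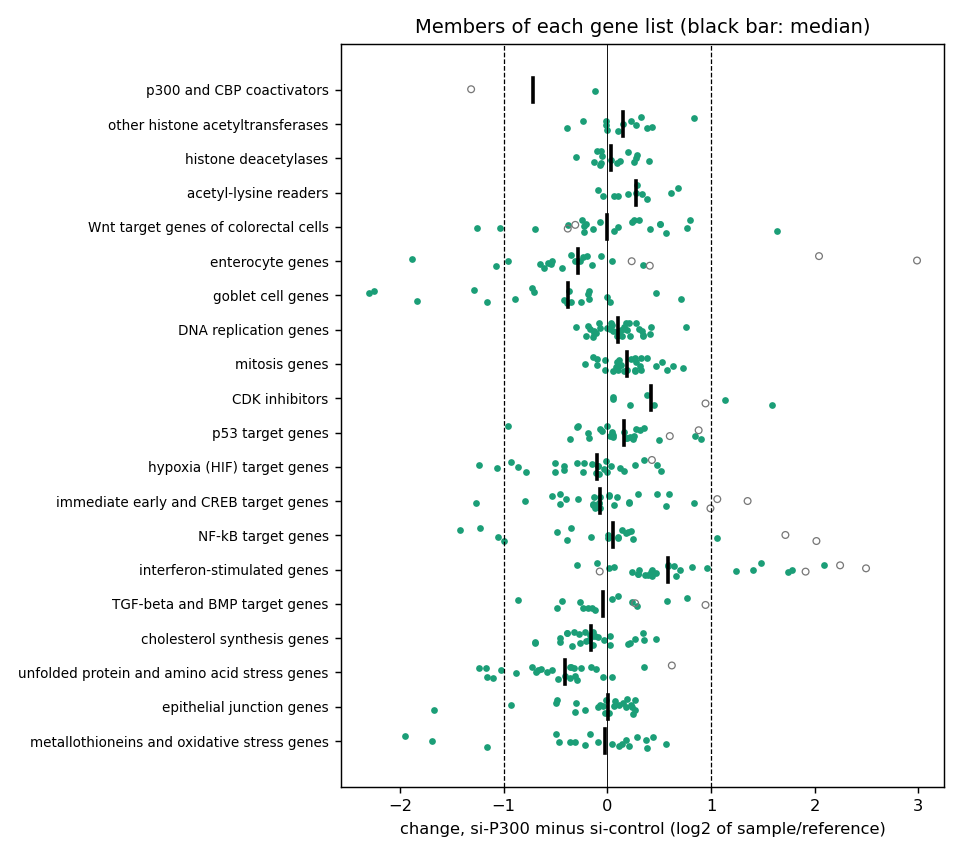
Change after p300 depletion (log2 of the ratio to reference RNA) of each measured member of 20 gene lists. Filled points were well above background in the sample channel on both arrays and open points were not, black bars are medians, dashed lines mark 2-fold, and heights within a row carry no value. The interferon-stimulated genes have the highest median (0.58), and the open points account for most members beyond 2-fold on the right of the enterocyte, immediate early, and NF-κB lists.

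The label was checked against markers of cell types. All 12 measured markers of colon epithelium were well above background in the sample channel on both arrays, and all 12 changes were below 0, with a median of -0.38. Of these, 3 were more than 1.5-fold lower and 1, CDH17, more than 2-fold lower. Their summed Cy3 signal was 274760 after si-control and 227730 after si-P300. Of the markers of other cell types, 4 of the 6 leukocyte genes measured were well above background on both arrays, with sums of 887 and 1029, 5 of the 7 fibroblast and muscle genes, with sums of 1687 and 1488, and 0 of the 2 endothelial genes, with sums of 32.8 and 78.1. The same held for 4 of the 5 hepatocyte genes, with sums of 2623 and 2360, and 2 of the 2 neuron genes, with sums of 11759 and 10570. Probes differ in brightness, so the sums are not compared between lists. Of the fibroblast and muscle markers COL3A1 and LUM were past 2-fold higher with Cy3 signals under 30 on both arrays.

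p300 was also depleted in HEK293T cells, a human embryonic kidney line, which had Wnt3A medium for 9 h in both the si-P300 and si-control samples, again with 1 array each. EP300 was lower there too, by -2.98 on the 8-spot probe. Of the 1052 features higher in Ls174T cells that were measured in both lines, 6.18% were more than 1.5-fold higher in HEK293T cells and 38.9% lower, where 3.33% and 8.35% of all 26729 shared features were. Of the 374 lower in Ls174T cells, 11.2% were higher and 29.1% lower. The slide of the Ls174T si-control array also holds the HEK293T si-P300 array, so that this slide enters the 2 comparisons with opposite sign. Among features bright on all 4 arrays the shares were 6.25% and 26.9% for 208 higher features and 11.5% and 19.8% for 182 lower ones, where 2.7% and 4.83% of all were called.

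Genes lower in both lines included HKDC1, at -2.30 in Ls174T and -2.99 in HEK293T cells, and PLA2G2A at -3.03 and -1.65. PCK1 was at -3.62 and -0.72 on its brightest probe. PTPRR, a receptor phosphatase that dampens MAP kinases, was at -1.36 and -2.48. PTPRR was at 0.02 after BRG1 depletion of Ls174T cells. CCL15 and DEFB1 were lower in both by the ratio, but their sample channels in Ls174T cells differed by -0.18 and 0.30. Of the 10 genes with the largest summed increase, 0 were bright on both Ls174T arrays. Among them were IFIT3 at 1.91 and 2.53, SAMD9L at 2.96 and 1.103, and TMEM255A at 3.52 and 0.64. The interferon genes did not share a direction in HEK293T cells. Of the 31 list members measured there, 3 were more than 1.5-fold higher and 6 lower, where 3.33% of all shared features were higher and 8.35% lower. IFI6 was at -0.23, IFIT1 was at 0.22, and SAMD9 was at 0.66.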

How the data were processed

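Total RNA was profiled on Agilent arrays of the human genome with 2 dyes, and the authors deposited the scanner program's output (Agilent Feature Extraction 10.5.1.1 per the file headers). In these deposited files the log10 ratio is that of Cy5 over Cy3 after the program's background subtraction and dye normalization, and the deposited intensity columns are in linear scanner units. The deposited value table holds log10 ratios of the same arrays, as found by comparison with the scanner files. From these, the log10 ratios were turned to log2 of sample over reference, control spots and outlier flags were left out, a median signal over 2 times the local background was required in either channel on both arrays, and spots of a probe were averaged. A gene is its measured probe with the highest mean Cy3 signal. A call is a change past 2-fold (1.5-fold in HEK293T cells), with 1 array per group and no test. Bright means well above background in the sample channel on both arrays. Where that held on 1 array only, the difference is a bound, against the higher of the lowest signal well above background and the probe's own, on sample channels after A-quantile normalization, and open to dye bias with no dye swap. Of 29084 features with a RefSeq accession, 27612 (94.9%) received 1 symbol. No feature was saturated, and the number of arrays limits the precision.

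The members and gene lists were chosen with earlier results of these data known. Named genes are EP300 and CREBBP, the 15 largest bright changes in each direction over 2 program errors, the 10 largest bounds in each direction, up to 5 list members past 2-fold in each direction, 8 Wnt targets, and genes past the threshold in both cell lines (10 the same way and 5 opposite in each direction). Some genes are not reported here and were left out of the lists and of the genes named by the rule. Other list members, and second probes, were named after their values were seen. Alternatives were normexp (offset 50, flagged spots left out) with loess in limma 3.58.1 (R 4.3.3), the deposited table, the sample channel alone scaled at its 75th percentile, other filters, thresholds, and gene values, median centering, and other controls. The filter on the sample channel well above background, the 2-fold requirement in both measures, and bounds scaled at the 75th percentile were chosen after seeing the data. Calculations used Python 3.11.15 and pandas 2.3.3 and were tested on simulated data.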

Additional observations from a re-analysis of the deposited data

Results flagged for a closer look

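After p300 depletion 9 of the genes named by the rule moved past the threshold in opposite directions in the 2 cell lines, given here as log2 changes with 1 array per condition, and the difference between the lines was not tested. OOEP was at 2.34 in Ls174T and -2.96 in HEK293T cells, C1QTNF5 at 2.29 and -2.95, DOCK10 at 3.88 and -1.26, and IL1RN at 3.15 and -1.97. In the other direction DCDC2 was at -3.38 and 1.51, CFAP161 at -3.42 and 1.43, EVI2B at -2.02 and 2.38, FUT2 at -1.40 and 2.52, and UNC13A at -1.37 and 2.32. The Ls174T si-control array and the HEK293T si-P300 array are on 1 slide, which enters the comparisons with opposite sign, and its part in these values was not tested. After BRG1 depletion of Ls174T cells 4 of the 4 higher genes were also more than 2-fold higher, where 3.67% of all genes were. Of the 5 lower genes 4 were also more than 2-fold lower, where 1.33% were. These counts share the si-control array with the choice of genes. In p300 minus BRG1 on the same slide 0 of the 4 and 0 of the 5 passed 2-fold in the same direction. Of the 9, C1QTNF5, FUT2, and UNC13A were bright on both Ls174T arrays. The sample channel of FUT2 was 0.21 higher after p300 depletion in Ls174T cells while its reference channel differed by 1.60, and FUT2 was also higher against the further si-control channel (1.63) and the si-BRG1 array (0.34).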

How the results depend on the processing

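Of 1152 values of named genes under the alternatives, 900 moved by less than the program error, 202 moved by more in the same direction, and 50 changed sign. The deposited table, the filters, kept outlier flags, and median centering could hardly move a value, and none moved there by more than the error. Under normexp and loess 48 values stayed, 63 moved by more, and 6 changed sign. The counts were 84, 30, and 5 with the sample channel alone and 17, 37, and 10 with the further si-control channel. They were 27, 63, and 28 with the si-BRG1 array and 107, 9, and 1 with the mean of si-control and si-MLLT10. The cause of a move was not tested. Under normexp and loess 51 features were higher and 188 lower, 37 genes higher and 106 lower, 5 interferon-stimulated genes were higher, and EP300 was at -0.56. The HEK293T shares were then 4% higher and 4% lower for features higher in Ls174T cells, and 6.9% and 11.7% for those lower. PIWIL1 (-0.23), SLC34A1 (-0.087), DPYD (-0.14), FAM133A (-0.084), TRAM1L1 (-0.076), and IFI44L (-0.019) changed sign. With the sample channel alone 2461 features and 1028 genes were higher, and the HEK293T shares of the higher features were 3.15% and 64.3%. PIWIL1 (-0.85), DEFB1 (0.30), FUT2 (0.21), EPHB3 (0.69), and SMOC2 (0.025) changed sign there. Without a filter on low signals 3344 features were higher and 1496 lower, 1122 genes higher and 495 lower, and the HEK293T shares were 12.0% higher for the features higher in Ls174T cells and 18.4% and 24.4% for those lower. With the sample channel required over 2 times background 114 features were higher and 310 lower, 74 genes and 5 interferon-stimulated genes were higher, and the shares were 7.87%, 19.1%, 16.4%, and 13.1%. With the sample channel well above background 231 features and 134 genes were higher. The share of all shared features called in HEK293T cells was not computed under these alternatives. The HEK293T shares given here therefore have no background beside them and are not read as above or below it.

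With the si-control channel of the β-catenin array as control 2229 features were higher and 2358 lower, 1039 genes higher and 959 lower, and 3 stress genes were lower. CREBBP (-0.45, second probe), MAGEH1 (-0.38), LRRC19 (1.21), FUT2 (1.63), LGR5 (0.78), SMOC2 (0.19), TFF2 (0.27), DDIT4 (1.46), DDIT3 (0.28), and SLC7A11 (1.73) changed sign. With the si-BRG1 array as control 304 features and 108 genes were higher, and 2 goblet cell genes and 0 stress genes lower. Those that changed sign downward were PIWIL1 (-0.20), CYBRD1 (-0.060), SERPINB2 (-0.11), TCL1A (-0.12), C4BPA (-0.21), CALCR (-0.16), TRAM1L1 (-0.24), OOEP (-0.11), DOCK10 (-0.026), RGMB (-0.0034), CA2 (-0.083), PDE4D (-0.20), CCL20 (-0.25), and TRAF1 (-0.063). Those that changed sign upward were FGF21 (0.083), CFAP161 (0.10), DCDC2 (0.36), RFTN1 (0.32), PDPN (0.30), PTPN22 (0.29), HBBP1 (0.13), EVI2B (0.58), FUT2 (0.34), EPHB3 (0.19), SMOC2 (0.20), CEACAM6 (0.10), DDIT4 (0.80), and IL1B (0.39). With the mean of the si-control and si-MLLT10 arrays SMOC2 (0.066) changed sign. At 1.5-fold 2624 features were higher and 1569 lower, 1203 genes higher and 688 lower, 15 interferon-stimulated genes higher, and 8 goblet cell and 10 stress genes lower.

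No paired analysis was possible because each condition has 1 array. Of the 1164 higher features, 231 were bright. With the sample channels scaled at their 75th percentile in place of A-quantile normalization, chosen after seeing the data, the bounds were 1.17 to 1.49 times as large for the 29 probes higher after p300 depletion and 0.687 to 0.862 times as large for the 14 lower ones.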
